A study of Drosophila melanogaster with 48 samples.

Results

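Repo-positive glia of late *Drosophila* embryos were compared with Repo-negative cells from embryos of the same age and fly line. The 4 libraries described here are the 18-22h Repo sort, 2 of Repo-positive and 2 of Repo-negative cells, out of 48 libraries in the series, and they were taken by their labels alone. DIV-MARIS, the method of the study, dissociates staged embryos, fixes the cells with formaldehyde, stains them with an antibody and separates stained from unstained cells by fluorescence-activated cell sorting (FACS) before RNA is extracted. Here the antibody recognized Repo protein, and the embryos were 18-22 h after egg laying (AEL) at 25 °C. All 4 libraries came from 1 fly line named vnd-lexA/VC:FNLDD, which carried P{vnd:FNLDD} and M{3x vnd-lexA:Cit}ZH-51C on a y1 w1118 background. Both fractions thus carried the same 2 transgenes, which report the ventral column through *vnd* sequences and were not used in this sort. The 8-10h Repo and 18-22h Elav libraries used below for comparison came from the same line. Replicates were biological duplicates. With 2 against 2 libraries the exact two-sided permutation test of a single value cannot go below p = 0.333, so tests rest on a fit over all genes and libraries.

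Glia are the non-neuronal cells of the nervous system. In *Drosophila*, *repo* (*reversed polarity*) encodes a homeodomain transcription factor made by nearly all glia outside the midline and needed for their terminal differentiation, and *gcm* (*glial cells missing*) starts the glial fate upstream of it. Late embryos hold several glial classes. Surface glia seal the nervous system with septate junctions and form the blood-brain barrier, cortex and ensheathing glia wrap cell bodies and the neuropil, and astrocyte-like glia take up neurotransmitter among the synapses.

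The 4 libraries held between 33944004 and 41557400 estimated reads. Levels are given below as normalized counts scaled to library size (CPM), or, where genes are compared with each other, as TPM, which also corrects for transcript length. A log2 fold change is the positive over the negative fraction and is followed by its standard error (SE). The SE was calculated back from the fold change and the statistic of its test, and was not estimated separately. A gene was called enriched or depleted when its adjusted p was below 0.05 in edgeR's quasi-likelihood test and its log2 fold change lay beyond 1. The median level of 153 odorant, gustatory and ionotropic receptor genes, which few embryonic cells should express, was 4.06 and 6.83 TPM in the negative and 3.32 and 3.64 TPM in the positive libraries. One difference between replicates touches several results. Transcripts of the depleted extracellular matrix genes were 2.12 to 3 times as abundant in Repo-negative replicate 1 as in replicate 2.

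The marker behaved as labelled. *repo* (chromosome 3R, 18236192 to 18239602, plus strand, BDGP6.54) stood at 12.3 and 13.6 CPM in the Repo-negative and at 1113 and 1017 CPM in the Repo-positive libraries. Its log2 fold change of 6.36 (SE 0.55) was second only to that of *Nepl15* among enriched coding genes of at least 10 CPM. Of 17109 genes tested, 551 were enriched, which is 3.22% of them, and 450 were depleted, which is 2.63%. The enriched set held 538 protein-coding genes, 12 long noncoding RNA (lncRNA) genes and 1 pseudogene, and the depleted set held 443 coding and 7 lncRNA genes. Both positive libraries lay above both negative libraries for every enriched gene and below them for every depleted one. Over all tested genes the same held for 20.3% and 34.5%. The size of both sets depended on single libraries. Without Repo-negative replicate 1 the counts were 282 enriched and 199 depleted, without Repo-negative replicate 2 they were 237 and 280, and without Repo-positive replicate 1 they were 251 and 68. Of the enriched genes 203, or 36.8%, and of the depleted genes 52, or 11.6%, were called whichever of the 4 libraries was left out, and none of either set changed its direction.

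Of 9 listed regulators of glial fate 4 were enriched, 1 was depleted and 4 were not called. *gcm* stood at 11.7 and 12.5 CPM in the negative and at 75.4 and 161 CPM in the positive libraries (log2 fold change 3.29, SE 0.46). Its paralogue *gcm2* stood at 7.13 and 9.82 CPM against 12.4 and 30.6 CPM. Its lower positive library lay close to the negative ones, and the adjusted p of 0.044 in edgeR's test became 0.795 without Repo-positive replicate 2. *loco*, a regulator of G-protein signalling that is a target of *gcm*, was enriched with 107 and 105 against 393 and 369.8 CPM (log2 fold change 1.85, SE 0.45), a call that was lost without Repo-positive replicate 1 (adjusted p 0.096) and without either negative library (0.0973 and 0.0985). *retn* (*retained*, *dead ringer*), which encodes an ARID-domain DNA-binding protein, went the other way, with 118 and 86.4 CPM in negative and 22.8 and 34.7 CPM in positive libraries (log2 fold change -1.83, SE 0.43). That call was lost without Repo-negative replicate 1 (adjusted p 0.0829 in edgeR's test) and without Repo-positive replicate 1 (0.398). Without either negative library 2 regulators were enriched. *gcm* overlaps *CG31709*, so some reads could belong to either. *pros*, *ttk*, *ct* and *pnt* had log2 fold changes of 1.12, 1.13, 1.11 and 0.42 and were not called. DESeq2 called 7 of the 9 regulators enriched and limma 4.

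The 15 coding genes with the largest enrichment, *repo* among them, ran from *Nepl15* at a log2 fold change of 6.54 to *CG11426* at 4.87. *Nepl15*, a neprilysin-like gene on chromosome 3R, had 47.8 and 39.8 CPM in the negative and 6197 and 1940.5 CPM in the positive libraries. The positive replicates differed widely from each other, yet both were far above the negative pair. *Gat*, the transporter that clears GABA into astrocyte-like glia, had 53.9 and 36.9 CPM against 3719.5 and 2876 CPM (log2 fold change 6.18, SE 0.61). *alrm* (*astrocytic leucine-rich repeat molecule*) rose from 19.2 and 16.2 to 1179.6 and 982 CPM (log2 fold change 5.93, SE 0.52), and *Gs2*, a glutamine synthetase, from 43.2 and 21.4 to 2510.2 and 1064 CPM (log2 fold change 5.79, SE 0.71). *alrm* lies within *Fur1* on the same strand, so reads of shared exonic sequence could be split between both. The Nimrod-family gene *NimA* had 6.62 and 8.57 CPM against 329 and 298 CPM, and *naz*, a retinol dehydrogenase, had 5.91 and 10.4 against 402 and 492 CPM. *rumpel*, which encodes a transporter-like protein of the sodium/solute symporter family, had 3.61 and 7.23 against 216 and 159.5 CPM. Without Repo-negative replicate 1 the adjusted p of *NimA* was 0.0522 and that of *rumpel* 0.0648, at log2 fold changes of 5.19 and 4.70.

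**Figure D1:**
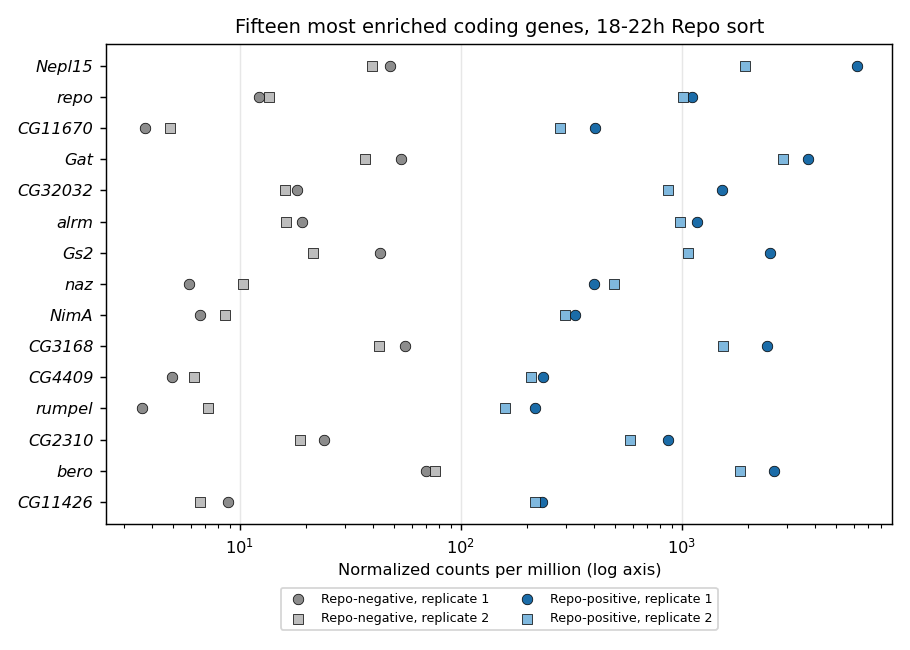
Normalized CPM (log axis) of the 15 coding genes with the largest enrichment at 18-22h AEL, 1 point per library, grey for Repo-negative and blue for Repo-positive, with circles for replicate 1 and squares for replicate 2. For every gene the blue points lie more than a decade to the right of the grey ones. Positive replicates lie far apart for *Nepl15*, at 6197 and 1940.5 CPM.

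Of these 15 genes 6 carry only a computed gene number, namely *CG11670*, *CG32032*, *CG3168*, *CG4409*, *CG2310* and *CG11426*. Over the 538 enriched coding genes, 164 or 30.5% had no other name, against 43.3% of the 13789 coding genes tested. *CG32032* stood at 18.1 and 16.1 against 1525 and 865 CPM, and *CG11670* at 3.75 and 4.85 against 405 and 281 CPM. By TPM the most abundant enriched coding gene was *bero* (*belly roll*), a small Ly6-like protein gene on chromosome 2L, with 364 and 504 TPM in the negative and 12469 and 9854 TPM in the positive libraries. It was followed by *fax* with a mean of 3959 TPM, *Nepl15* with 3571 TPM, the sodium pump subunits *Atpalpha* with 3486 TPM and *nrv2* with 3287 TPM, and *Gat* with 2839 TPM in positive libraries. The tubulin genes *alphaTub84B* and *betaTub56D* were also among the 10 most abundant enriched genes, at mean levels of 2454 and 1923 TPM against 762 and 576 TPM.

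Genes of neurotransmitter uptake and astrocyte-like glia formed another list. Of its 11 genes 9 were enriched, where 3.22% of all genes were, 1 was depleted and 1 was not called, and their median log2 fold change was 3.46 beside -0.21 over all tested genes. Their summed level was 849 and 790 TPM in the negative and 10619 and 7500.3 TPM in the positive libraries. The glutamate transporter gene *Eaat1* had 51.9 and 21.4 CPM in the negative against 1276 and 469.5 CPM in the positive libraries (log2 fold change 4.57, SE 0.65). *Eaat2*, whose product also carries taurine, had 37.6 and 27.7 against 199 and 123 CPM (2.30, SE 0.57). *Gabat*, the GABA transaminase, and *ine*, a member of the neurotransmitter transporter family, had log2 fold changes of 3.21 and 3.46. *e* (*ebony*), which joins β-alanine to biogenic amines, was at 4.93 and 6.08 against 60.2 and 46.1 CPM, and *Obp44a*, an odorant-binding protein gene, at 22.7 and 14.6 against 371 and 164 CPM. Repo-positive replicate 1 was the higher of the positive pair for each of the 9 genes, by 1.1 to 2.72 times. The glutamine synthetase genes parted. *Gs2* was enriched, whereas *Gs1*, whose product is mitochondrial, stood at 222 and 166 CPM in the negative and at 39.8 and 45.9 CPM in the positive libraries (log2 fold change -2.18, SE 0.45), a call lost without Repo-positive replicate 1 (adjusted p 0.139 in edgeR's test). The glutamate dehydrogenase gene *Gdh* was not called (0.25, SE 0.40). *Gs1* overlaps *ND-15*, so its reads are less certain. *Eaat2* and *e* each lost their call without either negative library or without Repo-positive replicate 1, and leaving out 1 library left 7 to 9 of the list enriched.

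Genes of the septate junction and blood-brain barrier had the highest share of enriched members among the lists. Of 28 genes 24 were enriched and none was depleted in edgeR's test, with a median log2 fold change of 2.99, and the summed level was 5039 and 4736 TPM in negative against 25629 and 19759.5 TPM in positive libraries. *moody*, the G-protein-coupled receptor needed to seal the barrier, had 140 and 80.5 CPM in the negative and 1523 and 1211 CPM in the positive libraries (log2 fold change 3.63, SE 0.56). *Gli* (*Gliotactin*), which marks corners where cells meet, had 135 and 131 against 2449 and 1717 CPM (3.97, SE 0.55), the largest value of the list. *bark* and *M6*, whose products also sit at such corners, had log2 fold changes of 3.09 and 2.29. The core junction genes *Nrx-IV*, *Cont* and *Nrg* had log2 fold changes of 2.65, 2.92 and 2.46, and the cytoplasmic scaffolds *cora* and *vari* 2.08 and 2.57. The claudin-like genes *kune*, *sinu* and *pck* rose together, at 3.02, 2.95 and 3.07. Of 4 listed Ly6 genes, whose GPI-anchored products are needed for junction assembly, 3 were enriched, namely *cold*, *crok* and *crim* at 3.38, 3.66 and 3.21. The fourth, *bou*, had 36.8 and 30.3 against 91.3 and 68.7 CPM and was not called (1.25, SE 0.42, adjusted p 0.0802), but it was called with DESeq2 and under 4 other alternatives. The ABC transporter gene *Mdr65* of the barrier had 13.8 and 15.2 against 198 and 136 CPM (3.52, SE 0.65). DESeq2 and limma each called 25 genes of the list enriched and 0 depleted, and 0 were lower at an unadjusted p below 0.05.

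Within families not all members were called. The sodium pump β subunit gene *nrv2* had 359 and 233 CPM in the negative and 5084 and 2465 CPM in the positive libraries (log2 fold change 3.67, SE 0.53). Its relative *nrv1* had 189 and 127 against 162 and 189 CPM, with overlapping groups (0.15, SE 0.51). Among G-protein subunits that act with *moody*, *Galphai* was enriched (1.75, SE 0.46), whereas *Galphao* (0.10, SE 0.35) and *Ggamma1* (0.63, SE 0.41) were not called. Leaving out 1 library left 19 to 24 barrier genes enriched, 19 being the count without Repo-negative replicate 2. *Atpalpha*, *cora* and *Galphai* lost their call without either negative library or without Repo-positive replicate 1. *vari* lost its call without Repo-negative replicate 2 (log2 fold change 2.47) or Repo-positive replicate 1 (1.91), and *Nrg* without Repo-negative replicate 2 (2.32).

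Fewer barrier genes were enriched at 8-10h AEL in the same line. There the median log2 fold change of the list was 0.75 beside 0.32 over all tested genes, and 2 genes were enriched, *moody* (1.88) and *bark* (2.18), where 1.80% of all genes were. In the 6-8h Repo sort, which came from another line named ind_1.4::GFP, 15 were enriched at a background of 7.36%. The log2 fold change was larger at 18-22h than at 8-10h for 26 of the 28 genes, and for 6554 of all 17109. The difference between both times passed the test for 3 of them. *Lac*, an immunoglobulin-domain junction protein gene, had 583 and 515 CPM in negative and 879 and 498 CPM in positive libraries at 8-10h, where the groups overlapped. At 18-22h it had 216 and 198 against 2526 and 1955 CPM, and the difference of the log2 fold changes was 3.11 (SE 0.64, adjusted p 0.026). *pasi1* and *crim* had differences of 2.80 (SE 0.61) and 2.54 (SE 0.58). Both of these calls were lost with length-scaled counts (adjusted p 0.06 and 0.0572 in edgeR's test). No other barrier gene passed, although *Mcr*, *crok*, *Gli* and *nrv2* had differences of 2.84, 2.69, 2.62 and 2.57. The 3 calls were each lost without any 1 of several libraries, *Lac* reaching an adjusted p of 0.400 without 8-10h Repo-positive replicate 2.

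**Figure D2:**
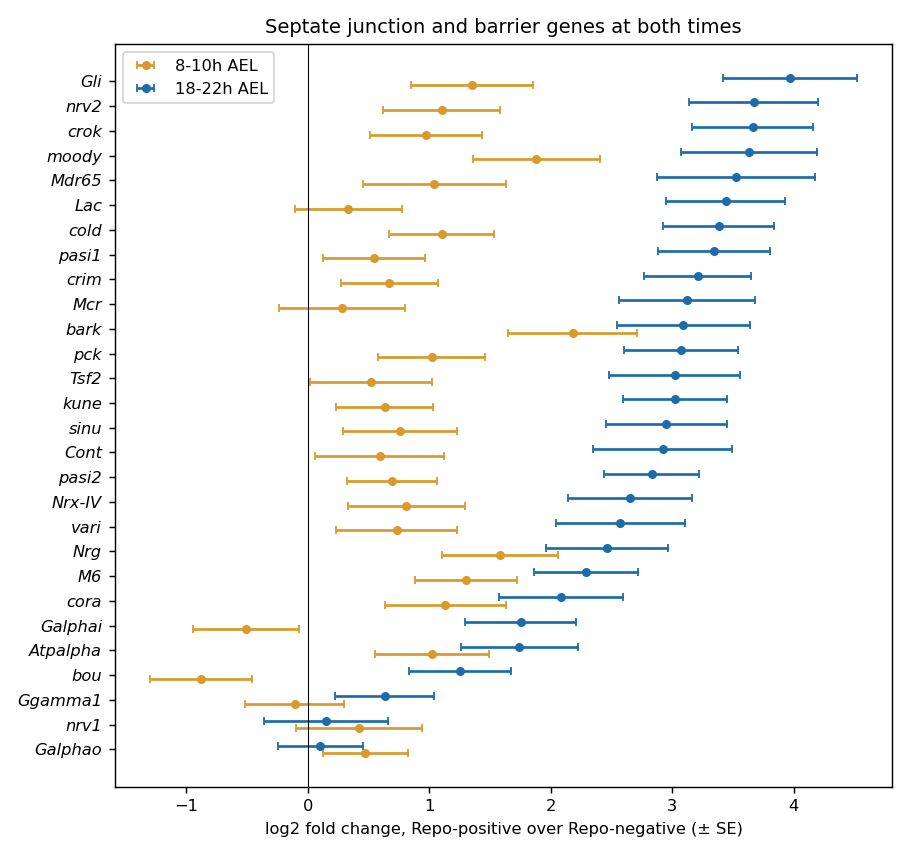
Log2 fold change of Repo-positive over Repo-negative cells with its SE as bars for the 28 septate junction and barrier genes, at 8-10h AEL (ochre) and 18-22h AEL (blue), ordered by the later value. The blue points lie to the right of the ochre ones for 26 genes. The median is 2.99 at the later and 0.75 at the earlier time.

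The transcript makeup of several barrier genes also differed between the fractions. A transcript share is given here as the percentage of a gene's TPM that 1 annotated transcript held. Genes were taken when they had at least 5 TPM in each of the 4 libraries and 2 or more transcripts, and the examples were chosen after their values were seen. A shift of at least 25 percentage points with no overlap between the groups occurred in 599 of 5487 such genes, which is 10.9%, and in 75 of 373 such enriched genes, which is 20.1%. It occurred in 6 of 17 barrier genes. *Nrx-IV-RB* held 41.5% and 61.9% of *Nrx-IV* in the negative and 89.1% and 88.7% in the positive libraries, and the other transcript, *Nrx-IV-RA*, encodes a protein of the same 1284 residues. Neuroglian, the product of *Nrg*, exists in a long form of neurons and a short form of other cells, which differ in the cytoplasmic tail. *Nrg-RC*, which encodes 1239 residues, held 33.7% and 36.5% in the negative and 75.4% and 72.3% in the positive libraries. *Nrg-RE*, which encodes 1302 residues, held 33.1% and 22.0% in the negative and 3.9% and 5.1% in the positive libraries.

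*nrv2-RF* held 32.5% and 20.5% of *nrv2* in the negative and 82.3% and 73.9% in the positive libraries, while *nrv2-RA* held 59.0% and 68.5% against 13.8% and 21.4%. Their products have 323 and 322 residues. For *vari*, a membrane-associated guanylate kinase gene, *vari-RC* (469 residues) held 48% and 46.4% against 91.1% and 81.2%, and *vari-RB* (636 residues) held 35.4% and 39.9% against 0.0% and 1.4%. *loco* had smaller shifts. Its transcript *loco-RC* held 25.5% and 32.9% in the negative and 43.4% and 47.2% in the positive libraries. *pnt-RB*, which encodes the 718-residue form of the ETS factor Pointed, held 55.7% and 59.0% against 37.6% and 31.2%, although *pnt* as a gene was not called. Shares of transcripts that overlap are estimates of the quantifier, and no test was made on them.

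**Figure D3:**
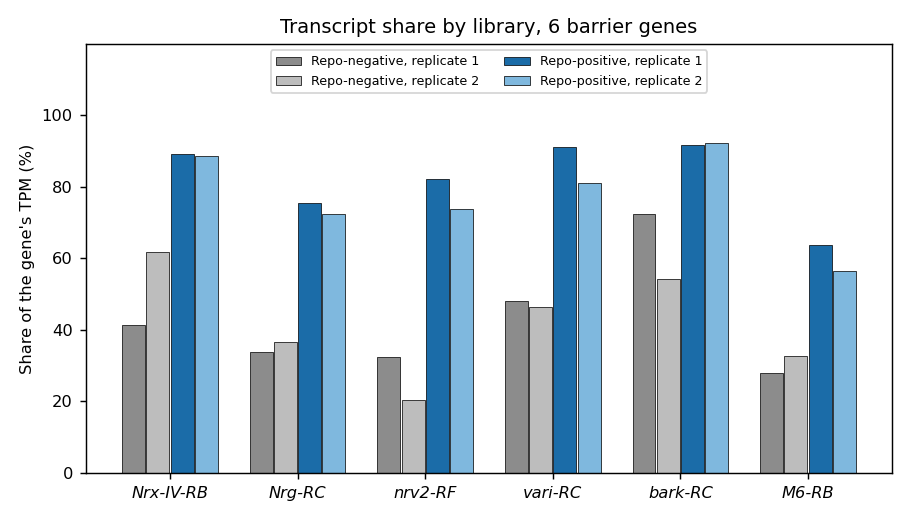
Share of a gene's TPM held by 1 transcript (%) in each of the 4 libraries, for the 6 barrier genes with a shift of at least 25 percentage points. Grey bars are Repo-negative and blue bars Repo-positive libraries. In all 6 both blue bars stand above both grey bars, for *Nrx-IV-RB* at 89.1% and 88.7% against 41.5% and 61.9%.

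Of 19 genes of ion and water balance 8 were enriched and none was depleted in edgeR's test, with a median log2 fold change of 0.67. At an unadjusted p below 0.05 0 were lower in edgeR's test and DESeq2 and 1 in limma, and neither of the latter tools called any depleted. *Ncc69*, a sodium-potassium-chloride cotransporter gene, had 102 and 86.8 CPM in the negative and 2615 and 1259 CPM in the positive libraries (log2 fold change 4.36, SE 0.63). *zyd* (*zydeco*), a potassium-dependent sodium-calcium exchanger gene of cortex glia, had 79.6 and 53.5 against 1407 and 1142 CPM (4.26, SE 0.46). *kcc*, which encodes a potassium-chloride cotransporter, and *fray*, the kinase that regulates such cotransporters, had log2 fold changes of 2.69 and 1.31. Among inward-rectifier potassium channel genes *Irk3* had 6.08 and 8.10 against 167 and 95.7 CPM (4.21, SE 0.54), whereas *Irk1* had overlapping groups (-0.01, SE 0.59) and *Irk2* was not called. *Prip*, an aquaporin gene, *CAH1*, a carbonic anhydrase gene, and the chloride channel gene *ClC-a* had 2.81, 2.82 and 2.59. The enriched genes numbered 7 without Repo-positive replicate 2 and 5 without any other of the 4 libraries.

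Glycolysis was the metabolic list with the most enriched members. Of 14 genes of glycolysis and trehalose use 8 were enriched and none was depleted in edgeR's test, and the median log2 fold change was 1.50. At an unadjusted p below 0.05 1 was lower, and DESeq2 and limma called 0 depleted. *Pglym78*, the phosphoglycerate mutase gene, had 63.7 and 47.3 CPM against 349 and 233 CPM (2.39, SE 0.40), and *Tpi* had 88.7 and 62.7 against 409 and 263 CPM (2.15, SE 0.44). *Pfk*, *Gapdh2* and *Pgi* had 1.76, 1.77 and 1.78. *Ldh*, which encodes the enzyme that converts pyruvate to lactate, had 110 and 95.2 against 467 and 228 CPM (1.76, SE 0.38). The trehalase gene *Treh* (0.45) and the pyruvate kinase gene *PyK* (0.51) were not called. The count depended on single libraries, being 5 without Repo-negative replicate 1 and 2 without either Repo-negative replicate 2 or Repo-positive replicate 1. None of 79 tested nuclear genes of the respiratory chain was called in edgeR's test, where 3 were higher at an unadjusted p below 0.05. DESeq2 called 1 and limma 0 of them, with 28 and 33 higher at an unadjusted p below 0.05. The median log2 fold change was 0.50, and 56 of the 79 lay higher in both positive than in both negative libraries, where 20.3% of all genes did. Of 92 cytoplasmic ribosomal protein genes 1 was enriched, *RpS15Ab*, with a median of 0.03, and that call was lost without either negative library or without Repo-positive replicate 1.

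Solute transporters of glia were mixed, with 7 of 22 enriched, 1 depleted and a median log2 fold change of 0.43. Besides *rumpel*, its relatives *bumpel* and *kumpel* had 5.20 and 6.16 against 91.8 and 58.8 CPM and 15.6 and 22.1 against 252 and 99 CPM. *kumpel* just passed the test (adjusted p 0.044) and missed it with median-of-ratios factors (0.0525). The trehalose transporter gene *Tret1-1* (1.60, SE 0.37), the amino acid transporter genes *mnd* (1.69, SE 0.35) and *gb* (*genderblind*, 2.44, SE 0.41) and the monocarboxylate transporter gene *out* (1.66, SE 0.29) were also enriched. The *Tret1-1* call was lost with length-scaled counts (adjusted p 0.0534 in edgeR's test) and with limma (0.141). *Tret1-1*, *bumpel* and *kumpel* lost their calls without any 1 library other than Repo-positive replicate 2. *mnd* lost its call without Repo-negative replicate 2 (log2 fold change 1.43) or Repo-positive replicate 1 (1.62). *Glut1*, a glucose transporter gene, had 621 and 438 CPM in negative against 348 and 348 CPM in positive libraries and was not called (-0.61, SE 0.33). The lipophorin receptor gene *LpR2* was depleted, at 703 and 218 against 96.7 and 63.3 CPM (-2.53, SE 0.58), a call lost without Repo-negative replicate 1 (adjusted p 0.281 in edgeR's test), Repo-positive replicate 1 (0.0819) or Repo-positive replicate 2 (0.0995). Without any 1 library other than Repo-positive replicate 2, only 3 genes of the list were enriched.

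**Figure D4:**
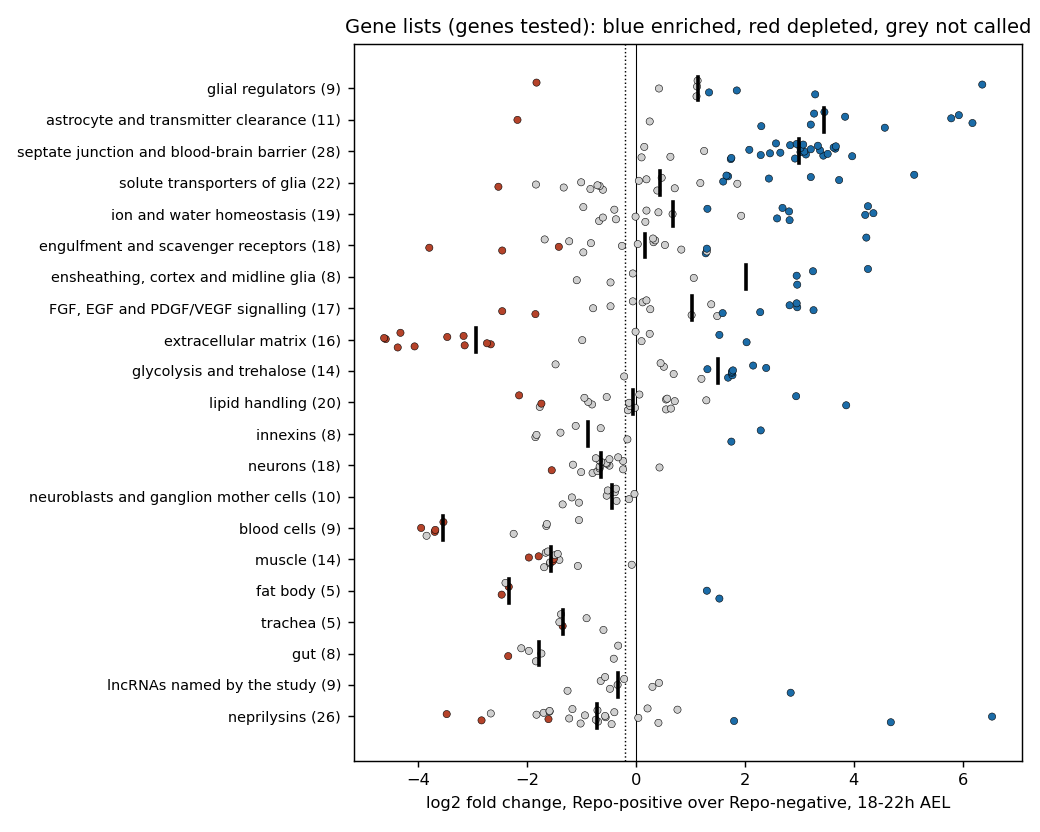
Log2 fold change of Repo-positive over Repo-negative cells at 18-22h AEL for the members of the gene lists (number tested in parentheses), 1 point per gene, blue for enriched, red for depleted and grey for not called. Members below 1 CPM in all 4 libraries are not drawn. Black bars are list medians and the dotted line is the median of all tested genes, -0.21. The medians run from 3.46 for astrocytes and transmitter clearance to -3.54 for blood cells.

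Of 17 genes of FGF, EGF and PDGF/VEGF signalling 6 were enriched and 2 depleted. The FGF receptor gene *htl* (*heartless*), which cortex and astrocyte-like glia need for growth, had 31.7 and 32.6 CPM in the negative and 249.6 and 250.3 CPM in the positive libraries (log2 fold change 2.96, SE 0.37). *stumps*, the adaptor of that receptor, had 123 and 173 against 1345 and 943 CPM (2.95, SE 0.46). The ligand genes *pyr* (-0.47, SE 0.39) and *ths* (-0.06, SE 0.33) were not called. In the EGF pathway the feedback inhibitor gene *aos* (*argos*) had 26.1 and 39.4 against 353 and 277 CPM (3.26, SE 0.39), and *rho* (*rhomboid*), the protease that releases EGF ligands, had 69.7 and 78.0 against 634 and 408 CPM (2.82, SE 0.40). The receptor gene *Egfr* was not called (1.49, SE 0.47, adjusted p 0.057). Of the PDGF/VEGF pathway the ligand genes *Pvf3* (2.28, SE 0.43) and *Pvf2* (1.59, SE 0.44) were enriched, while the receptor gene *Pvr*, at 1539 and 715 against 205 and 205 CPM, and the ligand gene *Pvf1* were depleted (-2.46, SE 0.61 and -1.85, SE 0.47). The *Pvf2* call was lost without any 1 of the 4 libraries (adjusted p 0.0824 to 0.257 in edgeR's test). Both depletions were lost without Repo-negative replicate 1 (adjusted p 0.179 and 0.195) and without either positive library. The innexin genes *ogre* and *Inx2*, whose channels couple surface glia, were enriched at 2.29 and 1.75, and none of the other 6 innexin genes was called. *Inx2* lost its call without any 1 of the 4 libraries, and without Repo-negative replicate 1 neither was called.

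Other lists covered wrapping glia, engulfment, lipids, peptidases and detoxification. Of 8 genes of ensheathing, cortex and midline glia 4 were enriched, among them *wrapper*, which encodes a surface protein of glia that enfold axons, with 14.8 and 16.9 against 135 and 167 CPM (3.25, SE 0.34), and these 4 were kept whichever library was left out. The midline genes *sim* (-1.09, SE 0.39) and *sli* (1.06, SE 0.49) were not called. Of 18 engulfment and scavenger receptor genes 3 were enriched and 3 depleted. Without any 1 library other than Repo-positive replicate 2 only 1 was enriched, and without that library 1 was depleted. *drpr* (*draper*), the receptor by which glia engulf neuronal debris, had 283 and 146 against 268 and 267 CPM and was not called (0.32, SE 0.52), nor was *ced-6*, its adaptor (0.03, SE 0.49). *santa-maria*, a scavenger receptor gene of the CD36 family, had 9.46 and 10.4 against 229 and 144 CPM (4.23, SE 0.53). In lipid handling 2 of 20 genes were enriched, *GLaz* (*Glial Lazarillo*), a lipocalin gene at 5.84 and 5.71 against 94.5 and 73.7 CPM (3.86, SE 0.37), and *fabp*, a fatty acid-binding protein gene at 52.3 and 46.7 against 397 and 362 CPM (2.94, SE 0.42). Besides *Nepl15*, the neprilysin genes enriched were *Nep4* at 28.2 and 18.4 against 684 and 506 CPM (4.68, SE 0.49) and *Nep6* (1.80, SE 0.34), and 3 of the 26 were depleted, none of them without Repo-negative replicate 1 or Repo-positive replicate 1. Of 81 cytochrome P450 genes 2 were enriched, *Cyp4g15* at 18.4 and 13.3 against 335 and 215 CPM (4.12, SE 0.74) and *Cyp6a20* (3.68, SE 0.53), and *Cyp4g1*, whose enzyme makes cuticular hydrocarbons, was depleted (-2.88, SE 0.65). Of these lists, lipid handling and cytochrome P450 genes held 2 depleted genes each, of which 0 were called without Repo-positive replicate 1 and 1 each without Repo-negative replicate 2. Over all tested genes 3.22% were enriched and 2.63% depleted, and the counts of cytochrome P450 genes lay near these shares in both directions.

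Of 2408 lncRNA genes tested, the 12 enriched ones were 0.498% and the 7 depleted ones 0.291%. The largest log2 fold change among those of at least 10 CPM belonged to *lncRNA:CR45824* (chromosome 3L, 12380252 to 12381470, plus strand), with 4.83 and 4.43 CPM in the negative and 78.3 and 46.3 CPM in the positive libraries (3.75, SE 0.47, adjusted p 3.1e-06). *lncRNA:CR30009* (chromosome 2R, 10261315 to 10263827, minus strand) was the most abundant of them, with 68.6 and 66.9 against 405 and 563 CPM. *asRNA:CR46145* (chromosome 3R, 9393890 to 9394737, plus strand) had 3.01 and 8.93 against 43.3 and 37.0 CPM (2.75, SE 0.50). Of 9 lncRNAs that the study itself named, which it chose on these libraries among others, *lncRNA:CR30009* was enriched and none of the other 8 was called. Without Repo-negative replicate 1 only 3 lncRNA genes were enriched, without Repo-negative replicate 2 there were 6, and without Repo-positive replicate 1 there were 5.

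The genes with the largest depletion included components of the basement membrane. Of 16 extracellular matrix genes 10 were depleted and 2 enriched, with a median log2 fold change of -2.95. The summed level of the list was 37321 and 17862 TPM in negative and 2928 and 2894 TPM in positive libraries. *Ppn* (*papilin*) had 43938 and 16165 CPM in the negative and 1319 and 1162 CPM in the positive libraries (log2 fold change -4.60, SE 0.93). The collagen IV genes *Col4a1* and *vkg* had 34868 and 12036 against 1194 and 1053 CPM and 21806 and 7704 against 795 and 668 CPM (-4.38 and -4.33, each with an SE of 0.83). *Pxn* (*Peroxidasin*), which crosslinks collagen IV, had 2969 and 1047 against 91.7 and 70.0 CPM (-4.63, SE 0.78), though it overlaps lncRNA genes on the same strand. The laminin genes *LanA*, *LanB1* and *LanB2* had -3.15, -2.67 and -2.74. *trol*, which encodes perlecan, did not follow them, with 6335 and 2718 against 6298 and 4445 CPM and overlapping groups (0.25, SE 0.56). *Mmp1*, a matrix metalloprotease gene, and *Timp*, its inhibitor, were enriched (2.03, SE 0.48 and 1.53, SE 0.43), but neither was without Repo-negative replicate 2 or Repo-positive replicate 1. Negative replicate 1 was the higher of the pair for all 10 depleted genes. The count of depleted matrix genes was 5 without it, 10 without Repo-negative replicate 2, 2 without Repo-positive replicate 1 and 6 without Repo-positive replicate 2. Without Repo-positive replicate 1 the log2 fold change of *Ppn* was still -4.60, at an adjusted p of 0.0819 in edgeR's test.

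Embryonic blood cells and the fat body are known as the main makers of this matrix, and 4 of 9 markers of blood cells were depleted with it. All 9 lay lower in both positive than in both negative libraries, where 34.5% of all genes did. Of all tested genes 2.63% were depleted. *srp* (*serpent*), the GATA factor of blood cells and fat body, had 593 and 383 against 39.8 and 44.1 CPM (-3.54, SE 0.53). The prophenoloxidase genes *PPO1* and *PPO2* of crystal cells had -3.69 and -3.95. *NimC1* had 118 and 36.1 against 6.12 and 5.71 CPM (-3.70), a call lost without Repo-negative replicate 1 (log2 fold change -2.61) or either positive library. *Hml* had 186 and 77.4 against 27.4 and 27.9 CPM and was not called in edgeR's test (-2.25, SE 0.85, adjusted p 0.134). It was called depleted with DESeq2 (adjusted p 0.0408) and with only the compared groups in edgeR's fit (0.00425). The summed level of the list was 806 and 891 TPM in negative and 77.5 and 98.0 TPM in positive libraries, and *He* was at 0 in 1 positive library. The part of blood cells in the depletion of matrix genes was not tested. In such bulk samples fewer cells of a type and less RNA per cell cannot be told apart. The other genes with the largest depletion were *nAChRbeta3*, a nicotinic acetylcholine receptor subunit gene at 96.1 and 35.9 against 2.75 and 1.89 CPM (-4.83, SE 0.95), the peptidase-family gene *Ance-5* at 666 and 203 against 19.6 and 17.3 CPM (-4.56, SE 0.94), and the computed genes *CG31337*, *CG43204*, *CG31777* and *CG34437*. Without Repo-positive replicate 1 the calls of *nAChRbeta3* (adjusted p 0.0568 in edgeR's test), *Ance-5* (0.0734) and *CG31337* (0.109) were lost, and the last was also lost without Repo-negative replicate 1 or Repo-positive replicate 2.

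**Figure D5:**
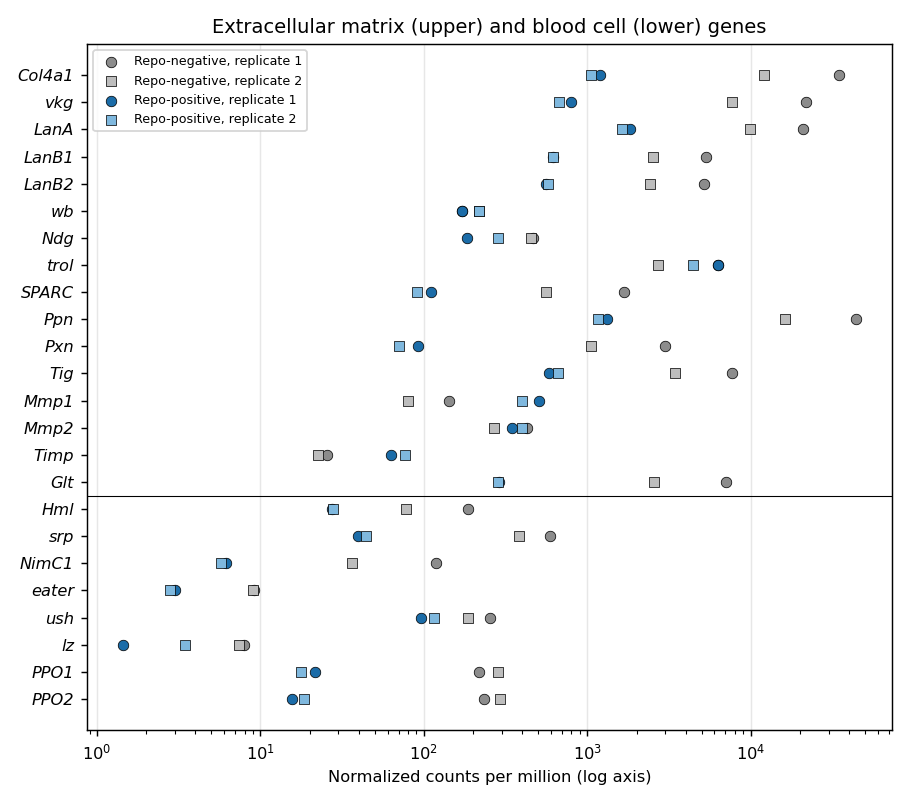
Normalized CPM (log axis) of 16 extracellular matrix genes (above the line) and 8 blood cell markers (below it), 1 point per library, grey for Repo-negative and blue for Repo-positive. *He* is left out because 1 library is at 0. Grey circles, negative replicate 1, lie right of grey squares for the depleted matrix genes, as for *Ppn* at 43938 and 16165 CPM, while the blue points nearly coincide at 1319 and 1162 CPM.

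Markers of other non-neural tissues were examined in the same way. Of 14 muscle genes 4 were depleted, where 2.63% of all genes were. Of the list 13 lay lower in both positive than in both negative libraries, where 34.5% of all genes did. The summed level was 5461 and 7036 TPM in the negative and 1392 and 2272 TPM in the positive libraries. *Mhc*, the muscle myosin heavy chain gene, had 1866 and 1589 against 474 and 679 CPM (-1.58, SE 0.55, adjusted p 0.0909). DESeq2 called 12 of the 14 depleted, while edgeR called 1 without Repo-negative replicate 2, 0 without Repo-positive replicate 1 and 2 without either other library. The part of muscle in the glial results was not tested. Of 5 fat body genes *apolpp* and *Apoltp* were depleted and *Mtp* and *Adh* were enriched, but each of these 4 calls was lost without 1 or more of the libraries. In trachea and gut 1 gene each was depleted, *pio* and *GATAe*. The *pio* call was lost with limma, with length-scaled counts and without any 1 of the 4 libraries, and that of *GATAe* without Repo-positive replicate 1 (adjusted p 0.0612 in edgeR's test). None of 95 cuticle protein genes was called in edgeR's test, where 9 were lower at an unadjusted p below 0.05, and DESeq2 and limma called 3 depleted. Of 177 chemosensory receptor genes none was called by edgeR, DESeq2 or limma, and 2 were lower at an unadjusted p below 0.05 in edgeR's test.

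Neuronal genes were measured in both fractions. Of 18 neuronal markers none was enriched by edgeR, DESeq2 or limma, 0 were higher at an unadjusted p below 0.05 and 1, *Rbp9*, was depleted (-1.55, SE 0.43), a call lost with limma (adjusted p 0.0538) and without any 1 of the 4 libraries. The median log2 fold change was -0.65. *elav* itself had 1116 and 901 CPM in the negative and 786 and 922 CPM in the positive libraries, with overlapping groups (-0.24, SE 0.44). The synaptic vesicle gene *nSyb* had 626 and 360.2 against 372 and 331 CPM (-0.49, SE 0.39), and *brp* (*bruchpilot*), a gene of the presynaptic active zone, 1426 and 838 against 802 and 755 CPM (-0.54, SE 0.44). The summed level of the list was 2934 and 2243 TPM in negative and 1616 and 1706 TPM in positive libraries. In the Elav-negative cells of the same age and line *nSyb* was at 65.9 and 43.9 CPM and *brp* at 228 and 117 CPM. The levels of both genes in Repo-positive cells thus lay above those of cells sorted as Elav-negative and below those of Elav-positive cells, which had 1478 and 1901 CPM of *nSyb* and 3293 and 4350.3 CPM of *brp*. No neuroblast gene of 10 was called in edgeR's test, with a median log2 fold change of -0.45, and 3 were lower at an unadjusted p below 0.05. DESeq2 and limma each called 3 depleted. The part of these neuronal transcripts in the glial results was not tested.

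The difference between the 18-22h and 8-10h Repo sorts was tested directly for every gene. It was called positive, a larger log2 fold change at 18-22h, for 39 genes or 0.228%, and negative for 16 or 0.0935%. With an unadjusted p below 0.05 there were 762 and 1031. The median difference over all genes was -0.43, and with median-of-ratios factors it was -0.59 and the called genes were 183 and 215, so the balance of both directions depended on the scaling. *bnb* (*bangles and beads*) had the largest difference. At 8-10h it stood at 2199.8 and 1972 CPM in negative and at 800.1 and 414 CPM in positive libraries, whereas at 18-22h it stood at 274 and 286 against 4906 and 2927 CPM. Its log2 fold change thus went from -1.78 to 3.81, a difference of 5.59 (SE 0.74, adjusted p 0.000239 in edgeR's test). *CG6356* had log2 fold changes of -0.65 and 3.37 (difference 4.02, SE 0.62) and *CG14687* of -0.81 and 2.43 (3.24, SE 0.43), and neither was called at 8-10h. *CG2310* had 1.58 at 8-10h, which was not called (adjusted p 0.0922 in edgeR's test), and 5.09 at 18-22h (3.51, SE 0.74). The receptor median was 2.78 and 7.28 TPM in negative and 4.45 and 18.7 TPM in positive libraries at 8-10h, and its part in these differences was not tested.

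Of listed genes with a called difference, *ogre* went from -0.70 to 2.29, *aos* from 0.27 to 3.26, *rho* from -0.10 to 2.82, *out* from -0.97 to 1.66 and *GLaz* from 1.76 to 3.86. At 8-10h *aos* had 92.3 and 58.3 CPM in negative and 111 and 70.3 CPM in positive libraries, with overlapping groups. The astrocyte list showed no called difference, and its median log2 fold change was 2.80 at 8-10h, where 8 of 11 genes were enriched. *repo* stood at 11 and 10.5 CPM in negative and at 1424 and 544 CPM in positive libraries at 8-10h. Its log2 fold change was 6.51 then and 6.36 in the later sort (difference -0.15, SE 0.62, adjusted p 0.943 in edgeR's test). In the other direction *CG13101* went from 3.23 to -0.74 (difference -3.97, SE 0.54) and *CG12911* from 2.63 to -1.20 (-3.82, SE 0.87). *retn* went from 0.86 to -1.83 (-2.69, SE 0.59), *CG42566* from 0.44 to -2.75 and *Galk*, the galactokinase gene, from 0.25 to -2.67. The *retn* call was lost with the replicate block (adjusted p 0.0648 in edgeR's test). With length-scaled counts the calls of *retn* (adjusted p 0.0633 in edgeR's test), *CG12911* (0.0652), *CG42566* (0.0591) and *GLaz* (0.0536) were lost. In positive libraries *CG13101* had 54.4 and 27.9 CPM at 8-10h and 4.51 and 5.71 CPM at 18-22h. *CG42566* had 3.04 and 4.96 CPM in negative and 4.75 and 6.12 CPM in positive libraries at 8-10h. At 18-22h it had 107 and 47.8 against 13.7 and 9.32 CPM. *Galk* had 9.01 and 10.8 against 9 and 14.5 CPM, and later 60.7 and 37.6 against 7.9 and 7.6 CPM. The positive calls numbered 4 without 8-10h Repo-negative replicate 1, 5 without 8-10h Repo-positive replicate 2, 5 without 18-22h Repo-positive replicate 1, 6 and 11 without either 18-22h Repo-negative library, 17 without 8-10h Repo-negative replicate 2 and 89 without 8-10h Repo-positive replicate 1. The negative calls numbered 12 without 18-22h Repo-positive replicate 2, 8 without 18-22h Repo-negative replicate 2, and 1 to 4 without any 1 of the other libraries. Of the 551 genes enriched at 18-22h, 182 were enriched at 8-10h, which is 33.0% of the later and 59.1% of the earlier set, where 1.80% of all genes were. In the 6-8h sort of the other line 317 of them were enriched, which is 57.5% of the 18-22h and 25.2% of the 6-8h set, where 7.36% of all genes were, and 232 were enriched at neither earlier time.

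Against the 18-22h Elav sort, the difference in enrichment was called positive for 1028 genes or 6.01% and negative for 1077 or 6.29%. At the glial end stood *Nepl15* (difference 8.92, SE 0.96), *CG11670* (7.59, SE 0.84), *CG32032* (7.14, SE 0.87) and *Gat* (6.80, SE 0.76). *Gat* had 301 and 84.3 CPM in Elav-negative and 109 and 142 CPM in Elav-positive libraries, with overlapping groups. At the neuronal end stood *Rdl*, a GABA receptor gene with 46.1 and 40.9 against 1864 and 1683 CPM in the Elav sort (difference -6.27, SE 0.88), *CG34354* (-6.23), the calcium exchanger gene *Nckx30C* (-6.22) and *trv* (-6.01). In the Repo sort these 4 had log2 fold changes of -0.92 to -0.74 and were not called. Barrier genes differed positively in 19 of 28 cases and negatively in 1, *Galphao* (-3.27, SE 0.50). *Glut1* and *shakB*, a neuronal innexin gene, differed at -4.98 and -3.88.

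Of the 551 genes enriched in glia, 53 were also enriched in Elav-positive cells, which is 9.62% of the glial and 3.41% of the neuronal set, where 9.09% of all genes were enriched. They included *Atpalpha*, with log2 fold changes of 1.74 in the Repo and 2.07 in the Elav sort, *rho* (2.82 and 1.34), *gb* (2.44 and 1.24) and *Eaat2* (2.30 and 2.69). Of the 450 genes depleted in Repo-positive cells, 343 were depleted in Elav-positive cells as well, or 76.2% of them and 17.1% of the Elav set, where 11.8% of all genes were depleted. Both sorts share no libraries. *Col4a1* had 79961 and 9422 CPM in Elav-negative and 706 and 1035 CPM in Elav-positive libraries. The receptor median was 0.156 TPM in Elav-negative replicate 1 and 14.0 TPM in replicate 2. Without Elav-negative replicate 1 the positive calls fell to 395, and without replicate 2 they were 2105. They numbered 612 without Elav-positive replicate 1, 630 without Repo-negative replicate 2 and 653 without Repo-positive replicate 1, and the negative calls numbered 712 without that last library.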

How the data were processed

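RNA of sorted, formaldehyde-fixed cells was made into stranded, ribodepleted NuGEN Ovation libraries and sequenced. Per the labels and the study's methods, the authors quantified transcripts with Salmon 0.8.1 (dm6, FlyBase 6.15). The deposited values are estimated counts and TPM per transcript. Here counts were summed per gene, rounded and named from Ensembl release 115, where 305 of 34428 transcripts (0.368% to 0.406% of reads) had no match. The 12 tables of the authors' own comparisons (RSEM 1.3.0, DESeq2) hold fold changes and p-values and were not used. All 48 libraries in 24 groups entered 1 edgeR 4.0.16 quasi-likelihood fit (R 4.3.3) with TMM factors, low counts filtered, and Benjamini-Hochberg adjustment over 17109 genes. DESeq2 1.42.0 and limma 3.58.1 on log2(TPM + 1) were alternatives. In data simulated for this comparison over 17109 genes, 96% of genes changed by 3 on the log2 scale and 98% of those changed by 5 were recovered, with 9 false calls. Only genes of at least 10 CPM were changed, and the draws held no shift shared by the genes of a library. The called genes had smaller median log2 fold changes of 1.98 and -1.76, so these rates do not describe the reported calls. Leading genes were the most changed called coding genes (15 enriched, 10 depleted), 3 lncRNA genes and 4 per direction for each difference, of at least 10 CPM in the higher group and, for enrichment, not overlapping. Genes and lists were chosen with earlier results of these data known. Duplicates number 2 a group, so p-values rest on a spread shared over all groups.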

Additional observations from a re-analysis of the deposited data

Results flagged for a closer look

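Log2 fold changes that differed between the 18-22h and the 8-10h Repo sort, by edgeR's test of the difference itself, were taken as results to look at again. Among leading genes the differences (later minus earlier) were 5.59 for *bnb*, 4.02 for *CG6356*, 3.51 for *CG2310*, 3.24 for *CG14687*, -3.97 for *CG13101*, -3.82 for *CG12911*, -3.19 for *CG42566* and -2.91 for *Galk*. Among genes of the lists they were 3.11 for *Lac*, 3.00 for *aos*, 2.99 for *ogre*, 2.92 for *rho*, 2.80 for *pasi1*, 2.63 for *out*, 2.54 for *crim*, 2.11 for *GLaz* and -2.69 for *retn*.

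The same test between the 18-22h Repo and the 18-22h Elav sort gave differences (Repo minus Elav) of 8.92 for *Nepl15*, 7.59 for *CG11670*, 7.14 for *CG32032*, 6.80 for *Gat*, -6.27 for *Rdl*, -6.23 for *CG34354*, -6.22 for *Nckx30C* and -6.01 for *trv*.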

How the results depend on the processing

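Counts below are given as enriched and depleted genes, or as positive and negative differences. For the 18-22h Repo sort (551 and 450), they were 984 and 955 with only the compared groups in the fit. The depleted counts were 875 with the receptor level as a covariate, 850 with DESeq2 and 869 with limma. Enriched lncRNA genes (12) numbered 23 with median-of-ratios factors, 49 with only the compared groups, 34 with the covariate, 34 with DESeq2 and 23 with limma. Leaving out 1 library gave 237 to 435 enriched genes, 68 to 318 depleted genes and 3 to 9 enriched lncRNA genes.

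For the difference from 8-10h (39 and 16), median-of-ratios factors gave 183 and 215, only the compared groups 85 and 257, the covariate 245 and 282, DESeq2 416 and 540, and limma 148 and 612. Length-scaled counts gave 9 negative differences. Leaving out 1 library gave 4 to 89 and 1 to 12. For the difference from the Elav sort (1028 and 1077), only the compared groups gave 292 and 571. The covariate gave 2157 and limma 2435 negative differences, and DESeq2 gave 1766 positive ones. Leaving out 1 library gave 395 to 2105 and 712 to 1539. The cause of these shifts was not tested. When 1 library was left out, the uncalled log2 fold change of *VGlut* ran from -0.89 to 0.06 (above 0 only without Repo-negative replicate 1) and that of *drpr* from -0.08 (without Repo-negative replicate 2) to 0.87. Of 1776 values for 148 named genes, 1572 kept direction and call, 195 lost the call, 7 gained it and 2 reversed.

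Replicate numbers name libraries but nothing ties equal numbers to a shared sample. Deviations of same-numbered libraries correlated at 0.029 in the 18-22h Repo, 0.562 in the 8-10h Repo and -0.552 in the 18-22h Elav sort. With the replicate number as a block the counts were 604 and 580 for the 18-22h sort, 79 and 25 for the difference from 8-10h, and 937 and 1188 for that from the Elav sort. Of named genes, *Cyp18a1* (adjusted p 0.0716) and the *retn* difference (0.0648) lost their call in edgeR's test with the block. Crossing the 18-22h Elav numbers, an alternative chosen after seeing the data, gave 1413 and 1552.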
